A study of Mus musculus with 12 samples.

Results

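Prestin, encoded by Slc26a5, is the motor protein that packs the lateral plasma membrane of outer hair cells (OHCs) and changes its area with voltage, so that the mature cell shortens and lengthens with sound. Beneath that membrane lies a cortical lattice in which spectrin tetramers, built of alpha and beta chains, cross-link actin filaments and hold up the membrane. Inner hair cells (IHCs) pass the signal to the auditory nerve and have no electromotility. The 8 genes described here were taken from a fixed list of genes tied to later OHC function: Slc26a5, Ocm (oncomodulin, a calcium-binding parvalbumin abundant in mature OHCs), Strc (stereocilin, which anchors the tallest OHC stereocilia to the tectorial membrane), Lbh (a transcriptional co-regulator), Sri (sorcin, a calcium-binding penta-EF-hand protein), Sptan1 (alpha II spectrin), Sptbn1 (beta II spectrin) and Sptbn5 (beta V spectrin). They were matched by gene name to 8 of the 55416 gene identifiers counted. Strc and Lbh do not encode lateral wall proteins, and the list is named here after prestin and the lateral wall only for short.

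The libraries were made from hair cells of mouse cochleae on the day of birth (postnatal day 0, P0), dissociated and sorted by fluorescence. The IHC group was 6 pools of cells sorted by Atoh1-GFP, a reporter fused to a hair cell transcription factor. The OHC group was 6 pools of cells sorted by Atoh1-GFP and Insm1-GFP-Cre together with R26-TdTomato. Cre is made from the Insm1 gene, which is active in OHCs and not in IHCs at this age, and TdTomato fluoresces red in cells in which Cre has acted. By the study's labelling scheme both cell types came from the same crosses, so that IHCs were green alone and OHCs green and red. All 12 pools were labelled as WT in genotype, and each came from several pups of both sexes. The Cre knocked into Insm1 chose the OHCs, so Insm1 is not an independent marker of them.

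Total counts per library were 31490204 to 44017309 in IHCs and 29564827 to 39121988 in OHCs. Ribosomal RNA took 21.5% to 56.9% of the counts, and IHC replicate 1 held the highest share and the smallest number of other counts, 13561440. The 4 IHC markers checked (Fgf8, Tbx2, Slc17a8 and Otof) were all higher in IHCs, and the 4 OHC markers (Insm1, Bcl11b, Neurod6 and Prox1) were all higher in OHCs. Insm1 stayed at or below 0.436 CPM (counts per 1000000, scaled between libraries) in every IHC library and reached at least 27.3 CPM in every OHC library. Of 13269 genes that passed the filter on low counts, the quasi-likelihood test of edgeR, with p-values adjusted by Benjamini-Hochberg, called 506 higher in IHCs and 324 higher in OHCs, which is 6.26% in either direction and 2.44% for OHCs. All CPM values below were scaled by the trimmed mean of M-values (TMM), and a positive log2 fold change means higher in OHCs.

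The 250 bases before the annotated start of 4 members are shown, since these members cover the patterns found: Slc26a5 and Lbh differed between the cell types, Strc was high in both, and Ocm was near 0 in both. Capitals mark E-boxes (CANNTG, the general pattern for bHLH factors, Atoh1 among them) and the TATA motif TATAAA, both searched on either strand. The letters were read from GRCm39 on the strand of the gene and run 5′ to 3′ up to the base before the start of the canonical GENCODE transcript. Slc26a5 is at chr5:22070616-22070865 on the minus strand, Lbh at chr17:73225044-73225293 on the plus strand, Strc at chr2:121211422-121211671 on the minus strand and Ocm at chr5:143963418-143963667 on the minus strand.
Slc26a5: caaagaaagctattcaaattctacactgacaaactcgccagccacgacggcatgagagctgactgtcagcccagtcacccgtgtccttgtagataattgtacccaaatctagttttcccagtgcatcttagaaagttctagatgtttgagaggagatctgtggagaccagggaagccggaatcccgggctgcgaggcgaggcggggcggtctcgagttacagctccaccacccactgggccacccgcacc
Lbh: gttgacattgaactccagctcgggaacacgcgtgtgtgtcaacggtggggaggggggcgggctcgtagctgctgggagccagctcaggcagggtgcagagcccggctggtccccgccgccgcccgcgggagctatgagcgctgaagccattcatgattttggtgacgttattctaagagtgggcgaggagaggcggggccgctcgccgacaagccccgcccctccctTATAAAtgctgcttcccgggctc
Strc: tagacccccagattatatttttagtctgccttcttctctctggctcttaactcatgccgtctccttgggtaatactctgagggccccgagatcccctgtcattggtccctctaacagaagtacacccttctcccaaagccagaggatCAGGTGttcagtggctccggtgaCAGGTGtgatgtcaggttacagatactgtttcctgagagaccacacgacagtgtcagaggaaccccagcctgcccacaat
Ocm: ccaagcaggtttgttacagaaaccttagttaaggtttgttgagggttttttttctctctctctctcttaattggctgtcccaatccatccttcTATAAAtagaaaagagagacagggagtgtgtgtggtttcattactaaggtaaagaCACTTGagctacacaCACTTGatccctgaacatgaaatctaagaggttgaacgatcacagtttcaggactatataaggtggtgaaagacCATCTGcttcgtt

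The stretch before Strc held 2 E-boxes, both CAGGTG, at 103 and 80 bases before the start, and that before Ocm held 3, at 102, 87 and 13 bases. None was found before Slc26a5, Lbh, Sri, Sptan1, Sptbn1 or Sptbn5. At least 1 E-box occurred in 64.8% of the same windows of 21770 protein-coding genes, at least 2 in 30.2% and at least 3 in 10.7%. The E-box form CAGCTG was found before none of the members, against 11.9% of all windows. TATAAA was found before Lbh, where it began 23 bases from the start, and before Ocm and Sri, against 11.9% of all windows. CpG dinucleotides numbered 39 before Sptbn1, 26 before Sri, 21 before Lbh, 12 before Slc26a5, 9 before Sptan1, 4 before Strc and before Sptbn5, and 2 before Ocm, with a median of 8 over all windows. Start sites were not measured here.

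Slc26a5 and Lbh were the members that passed the test, 2 of the 6 that could be tested, and both were higher in OHCs. Of all genes tested, 6.26% were called in either direction and 2.44% as higher in OHCs. Strc, Sri, Sptan1 and Sptbn1 did not pass the test in either direction. Ocm and Sptbn5 did not pass the filter on low counts. The median log2 fold change of the 6 tested members was −0.06, beside −0.04 over all genes tested. Because these were pools of sorted cells, fewer cells with a transcript and less of it per cell cannot be told apart.

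**Figure D1:**
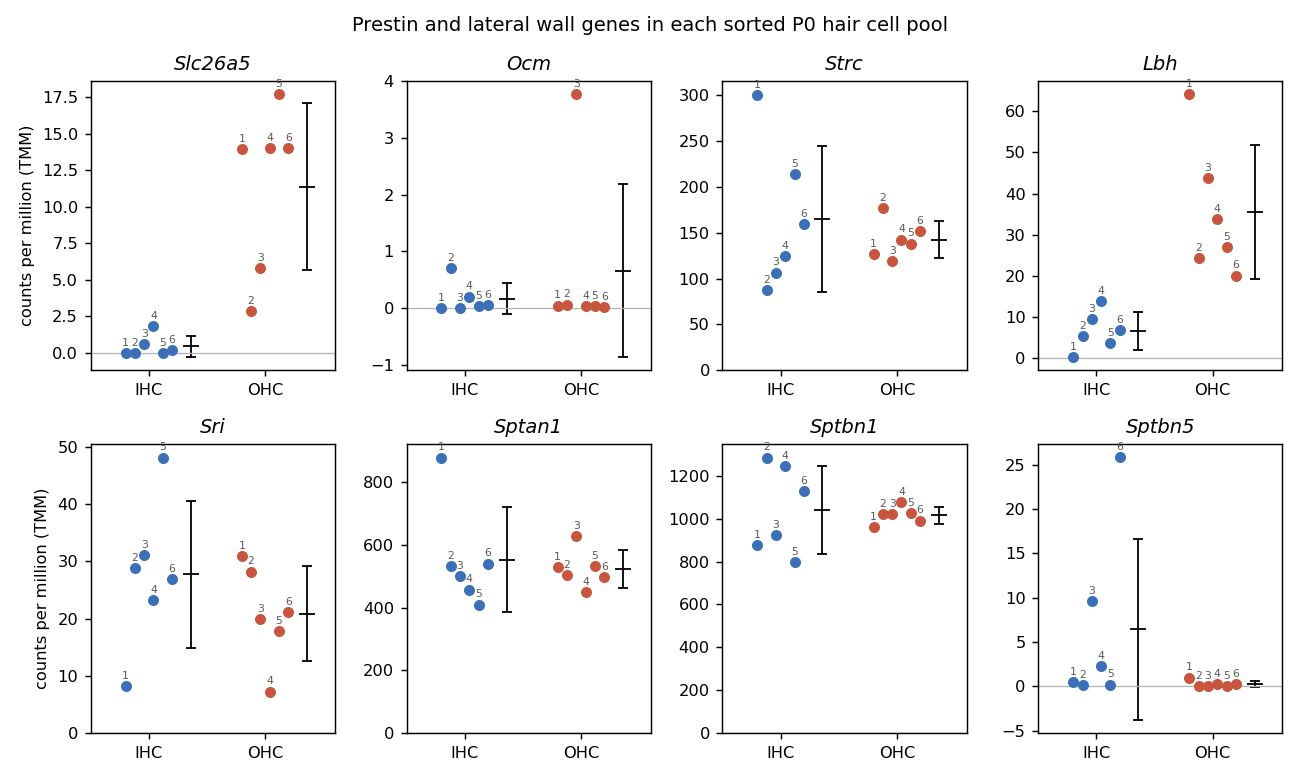
Each panel plots TMM-scaled CPM (vertical axis, its range set per gene) of 1 gene in the 6 IHC (blue) and 6 OHC (red) libraries, with the replicate number above each point and the mean with its SD at the right. Every OHC library lies above every IHC library for Slc26a5 and Lbh, the groups overlap for the other genes, and Ocm and Sptbn5 are carried by OHC replicate 3 and by IHC replicates 6 and 3.

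Slc26a5 (ENSMUSG00000029015, chr5:22015653-22070615, minus strand) was close to absent from IHCs and present at a low level in OHCs. In IHCs it had 0 counts in 3 libraries, a median of 0.0953 CPM and a highest value of 1.84 CPM, in replicate 4. In OHCs the lowest value was 2.84 CPM in replicate 2, the median 14.0 CPM and the highest 17.7 CPM in replicate 5. The groups did not overlap, and replicates 2 and 3 of the OHCs stood below the other OHC libraries, which lay between 13.9 and 17.7 CPM. Every OHC library was above every IHC library for 2.22% of the genes tested. Slc26a5 had 0, 0, 23, 73, 0 and 7 counts in the IHC libraries, so it passed the filter on low counts only through the OHC group. The fitted log2 fold change was 4.66 ± 1.22 (SE, n = 6 and 6), about 25.4-fold, with a 95% interval from 4.34-fold to 148-fold and an adjusted p of 0.0253 in edgeR's quasi-likelihood test.

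The size of the difference rested in part on IHC replicate 4, which held 73 of the prestin counts of the IHC group; without it the log2 fold change was 6.08 with an adjusted p of 0.0075. The call was lost by a narrow margin without OHC replicate 1, 5 or 6, with adjusted p of 0.0506, 0.0513 and 0.0517, while the log2 fold change stayed at 4.50 to 4.60. In IHC replicate 4, prestin reached 16.2% of the OHC mean, whereas Insm1 was at 0.382%, Bcl11b at 0.36% and Neurod6 at 0% of theirs. Prox1, the other OHC marker, was at 14.97% of its OHC mean. The part of OHCs in the prestin counts of this library was not tested.

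Lbh (ENSMUSG00000024063, chr17:73225294-73248942, plus strand) encodes a co-regulator of transcription that is present in hair cells and is needed for the upkeep of mature OHCs. Its IHC values ran from 0.262 CPM in replicate 1 through a median of 6.10 CPM to 13.8 CPM in replicate 4. Its OHC values ran from 20.1 CPM in replicate 6 through a median of 30.3 CPM to 64.2 CPM in replicate 1. The groups did not overlap, and Lbh had counts in all 6 IHC libraries, prestin in 3. With 4 counts in IHC replicate 1, Lbh too passed the filter on low counts only through the OHC group. The log2 fold change was 2.43 ± 0.61 (SE, n = 6 and 6), or 5.40-fold with a 95% interval from 2.24-fold to 13.0-fold, and the adjusted p was 0.0200 in edgeR's quasi-likelihood test. Without OHC replicate 1, which held the highest value, it was 2.18 with an adjusted p of 0.0605.

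**Figure D2:**
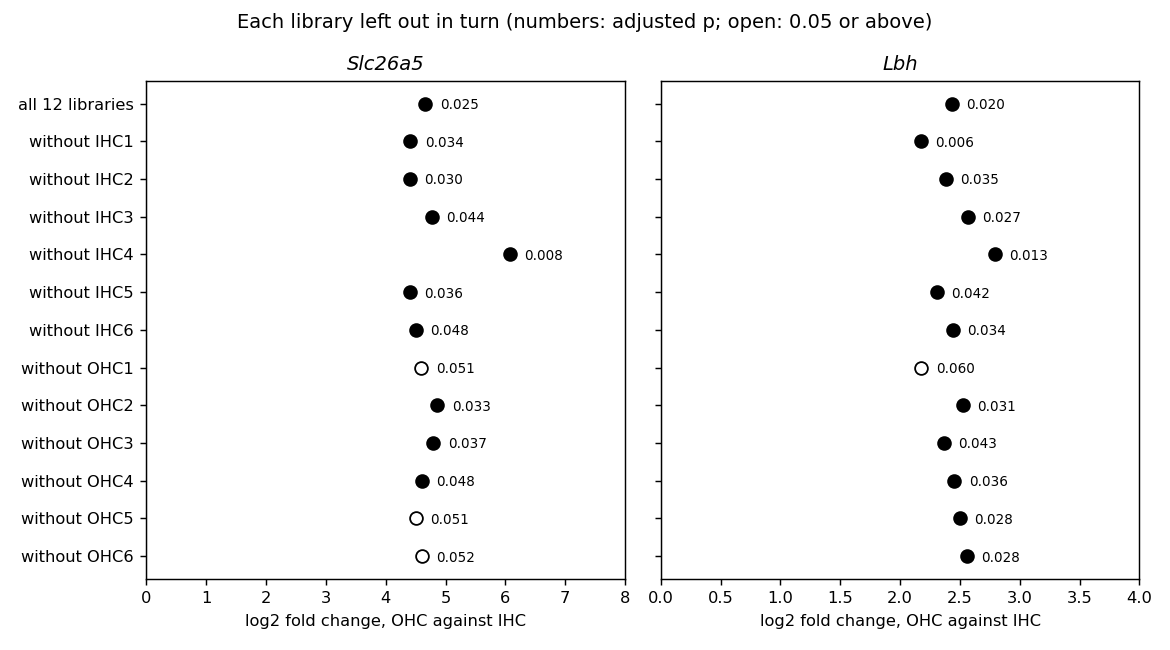
The log2 fold change of OHCs against IHCs (horizontal axis) for Slc26a5 and Lbh is plotted with all 12 libraries and with each library left out in turn (rows); the number beside each point is the adjusted p, and open points are at 0.05 or above. The fold change of Slc26a5 moved most without IHC replicate 4, to 6.08, and both genes lost the call without OHC replicate 1.

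Markers of endothelial cells differed between the cell types in the same direction as these genes. All 5 (Cldn5, Pecam1, Cdh5, Kdr and Tek) were called higher in OHCs, beside 2.44% of all genes tested. They passed the filter on low counts only through the OHC group, and Cldn5 had 0 counts in every IHC library. Their sum was 0.0817 to 3.19 CPM in IHC libraries and 12.8 to 149 CPM in OHC libraries. Their part in the values of Slc26a5, Lbh and the other genes called higher in OHCs was not tested. The highest endothelial sum was in OHC replicate 3, where Slc26a5 was second lowest among the OHC libraries at 5.81 CPM and Lbh second highest at 43.7 CPM. The 6 macrophage markers summed to 1.75 to 19.6 CPM in IHC libraries and 1.08 to 13.8 CPM in OHC libraries, with Cx3cr1 and C1qa at 0 throughout, C1qb up to 19.6 CPM in IHCs and Cd68 up to 12.8 CPM in OHCs.

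Ocm (ENSMUSG00000029618, chr5:143956622-143963488, minus strand) was near 0 in almost every pool of either type. In IHCs it had a lowest value of 0, a median of 0.0426 and a highest value of 0.708 CPM, the last from 29 counts in replicate 2. In OHCs the lowest was 0.0234, the median 0.0382 and the highest 3.77 CPM. That highest value was 139 counts in replicate 3, while the other 5 OHC libraries had 1 or 2 counts each, and it made up 74.7% of all 186 Ocm counts. The difference of the mean levels, 0.494 CPM, gave a two-sided exact permutation p of 0.762 over all 924 label assignments, and it turned to −0.128 CPM without OHC replicate 3. OHC replicate 3 was also the library with the highest endothelial sum, and whether the 2 are related was not tested. At these depths an oncomodulin difference between the cell types was not detectable at P0.

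Other calcium-buffering proteins of hair cells stood far above Ocm per length, and Pvalb and Calb2 were higher in IHCs. Pvalb (parvalbumin alpha) was 120 to 401 CPM in IHCs with a mean of 154 ± 48.6 TPM (transcripts per 1000000, SD, n = 6), and 70.9 to 168 CPM in OHCs with 92.8 ± 22.01 TPM. Its log2 fold change was −1.15 ± 0.27 (SE) with an adjusted p of 0.0138 in edgeR. Calb2 (calretinin) was 55.0 to 137 CPM in IHCs and 8.57 to 67.4 CPM in OHCs; the log2 fold change was −1.69 ± 0.40 (SE) with an adjusted p of 0.0137 in edgeR. Calb1 (calbindin) was at 122 ± 56.3 TPM in IHCs and 113 ± 55.0 TPM in OHCs (SD, n = 6 each) and was not called, with an adjusted p of 0.312. Of the 3 genes of this list that were tested, 2 fell in OHCs and none rose, beside 3.81% of all genes called higher in IHCs. Of 7 spiral ganglion neuron markers, 4 of the 5 tested were also called higher in IHCs, and the list summed to 1030.0 to 1650.1 CPM in IHC libraries and 308 to 498 CPM in OHC libraries, with Tubb3 and Neurod1 at or below 0.554 CPM in every library. Their part in the values of Pvalb and Calb2 was not tested.

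Strc (ENSMUSG00000033498, chr2:121193730-121217649, minus strand) was present in both kinds of hair cell at overlapping levels. It ranged from 87.0 CPM through a median of 142 CPM to 300.3 CPM in IHCs, and from 119 CPM through a median of 140.2 CPM to 177 CPM in OHCs. All 6 OHC values lay inside the IHC range, and IHC replicate 1 was the highest library by CPM. By TPM, with ribosomal RNA counted in the total, that library was at 39.2, and the highest was IHC replicate 6 at 89.3. The log2 fold change was −0.21 ± 0.27 (SE, n = 6 and 6), with a 95% interval of −0.77 to 0.35 and an adjusted p of 0.688 in edgeR; it was 0.032 without IHC replicate 1. The interval leaves room for a level up to 1.71-fold higher in IHCs or 1.27-fold higher in OHCs. On the opposite strand, exons of Ckmt1 cover 9.75% of the exonic bases of Strc, and reads were counted under HTSeq's default strand option as far as the methods tell; whether the libraries mark strand is not given in the sources used here. Ckmt1 itself had a log2 fold change of 0.27 with an adjusted p of 0.669.

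Among the relatives of stereocilin and the proteins of the tectorial membrane it attaches to, 7 of 9 were tested, 1 was higher in OHCs, 2 were higher in IHCs, and the median log2 fold change was −0.21. Over all genes tested, 2.44% were called higher in OHCs and 3.81% higher in IHCs. Mslnl, a mesothelin-like protein of the same superfamily as stereocilin, was 12.5 to 31.0 CPM in IHCs and 105 to 175 CPM in OHCs without overlap. Its log2 fold change was 2.63 ± 0.29 (SE) with an adjusted p of 8.33e-06 in edgeR. Tecta (alpha-tectorin) was 576 to 1086 CPM in IHCs and 52.2 to 403 CPM in OHCs; the log2 fold change was −1.81 ± 0.33 (SE) with an adjusted p of 0.00211 in edgeR. Otog (otogelin) was 52.2 to 320.4 CPM in IHCs and 12.9 to 95.5 CPM in OHCs. Its change on the log2 scale was −1.61 ± 0.45 (SE), and the adjusted p of 0.0364 missed the threshold in 7 of the 12 fits that left out a single library, at up to 0.0940. Otoa, a relative of stereocilin on the list, was at 1.89 ± 1.76 TPM in IHCs and 3.50 ± 2.24 TPM in OHCs (SD, n = 6 each) and was not called. Ceacam16 was at 0 counts in all 12 libraries.

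Tectorial membrane proteins are also made by cells of the greater epithelial ridge beside the IHCs. The 7 markers of that ridge that were checked, among them Tecta and Otoa themselves, summed to 713 to 1446 CPM in IHC libraries and 187 to 601 CPM in OHC libraries, and 1 of the 5 tested, Tecta, was called. Tecta itself made up most of the sum in every IHC library, at 576 to 1086 CPM. Calml4 was 88.0 to 238 CPM in IHCs and 105 to 206 CPM in OHCs, and Fabp7 8.63 to 102 CPM and 1.92 to 22.1 CPM. The part of such cells in the IHC values of Tecta and Otog was not tested.

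Sri (ENSMUSG00000003161, chr5:8096078-8128488, plus strand) was present at a modest level in both. It ranged from 8.24 CPM in replicate 1 through a median of 27.8 CPM to 48.2 CPM in IHCs, and from 7.24 CPM in replicate 4 through a median of 20.5 CPM to 30.9 CPM in OHCs. The groups overlapped, with 2 IHC libraries above every OHC library. The log2 fold change was −0.41 ± 0.44 (SE, n = 6 and 6), with a 95% interval of −1.33 to 0.51 and an adjusted p of 0.626 in edgeR. Over the union of its annotated exons, 54.4% of the bases of Sri lie over exons of Adam22 on the opposite strand, so its count may have lost or gained reads there; of 216 windows of 100 bases along the canonical Sri transcript, 0 matched a transcript of another gene. Adam22 had 217 to 2867 counts and a log2 fold change of 0.48 with an adjusted p of 0.509.

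None of the 6 tested penta-EF-hand genes, Sri included, was called by edgeR, DESeq2 or limma-voom, 0 had an unadjusted p under 0.05 in edgeR, beside 21.8% of all genes tested, and the median log2 fold change of the family was −0.06. Of 8 genes of proteins that sorcin is known to bind or regulate, or of their close relatives, all were tested, 2 were higher in OHCs and 1 was higher in IHCs. Over all genes tested these shares were 2.44% and 3.81%. Atp2a3, which encodes the calcium pump SERCA3 of the endoplasmic reticulum, was 95.6 to 220.2 CPM in IHCs and 0.983 to 17.4 CPM in OHCs; it fell in OHCs by 4.33 ± 0.62 (SE) on the log2 scale with an adjusted p of 0.000205 in edgeR. Atp2a2, the gene of the common pump SERCA2, was 251 to 401 CPM in IHCs and 312 to 436 CPM in OHCs with an adjusted p of 0.237. Anxa7, a calcium-dependent membrane-binding annexin, was 0.157 to 1.66 CPM in IHCs and 6.19 to 18.5 CPM in OHCs; the log2 fold change was 3.69 ± 0.82 (SE) with an adjusted p of 0.00941 in edgeR. Ryr1, a calcium release channel, was at or below 2.27 CPM in IHCs and 1.52 to 22.8 CPM in OHCs. Its log2 fold change of 3.81 ± 1.08 (SE) had an adjusted p of 0.0392 in edgeR, which missed the threshold in 9 of the 12 fits that left out a single library. Ryr1 had 2, 7, 5, 90, 38 and 1 counts in the IHC libraries, so it passed the filter on low counts only through the OHC group. Anxa7 likewise passed the filter only through that group, with 5, 20, 6, 53, 14 and 61 counts in the IHC libraries.

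The spectrins of the cortical lattice had the highest levels per length among the members in both cell types. Sptan1 (ENSMUSG00000057738, chr2:29855328-29921463, plus strand) ranged from 409 CPM through a median of 516 CPM to 879 CPM in IHCs, and from 449 CPM through a median of 516 CPM to 629 CPM in OHCs. The groups overlapped, and by CPM IHC replicate 1 stood above all other libraries. That library had the lowest TMM scaling factor, 0.486 against 0.902 to 1.23 in the others. By TPM its Sptan1 value was the lowest of all libraries, at 56.3. This TPM counts ribosomal RNA in the total, which took 56.9% of the counts of that library. The log2 fold change was −0.08 ± 0.19 (SE, n = 6 and 6), with a 95% interval of −0.48 to 0.32 and an adjusted p of 0.849 in edgeR, and it was 0.092 without IHC replicate 1.

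Sptbn1 (ENSMUSG00000020315, chr11:30049394-30218191, minus strand) ranged from 796 CPM through a median of 1025 CPM to 1286 CPM in IHCs, and from 960.4 CPM through a median of 1021 CPM to 1080 CPM in OHCs. All OHC values lay inside the IHC range, and the spread between OHC libraries was the smallest of the members, with a coefficient of variation of 3.90% against 19.7% in IHCs. It differed by −0.04 ± 0.17 (SE, n = 6 and 6) on the log2 scale, with an adjusted p of 0.921 in edgeR. Its 95% interval, −0.38 to 0.31, corresponds to at most 1.30-fold more in IHCs or 1.24-fold more in OHCs.

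Sptbn5 (ENSMUSG00000074899, chr2:119871974-119916159, minus strand), whose large product is found in sensory cells and in the OHC lateral wall, was seen mainly in single IHC pools. It was at 0.147 CPM in the lowest IHC library, 1.36 CPM at the median and 25.9 CPM in the highest, replicate 6. In OHCs the lowest value was 0, the median 0.142 CPM and the highest 0.992 CPM. IHC replicates 3, 4 and 6 were above every OHC library, the other 3 IHC libraries lay within the OHC range, and replicate 6 alone gave 63.5% of the 1497 counts. The difference of the means, −6.18 CPM in OHCs against IHCs, gave a two-sided exact permutation p of 0.0736, where 0.00216 is the smallest p the design allows.

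The call for Sptbn5 depended on the fit. Where no filter was applied, edgeR gave it a log2 fold change of −4.59 with an adjusted p of 0.0463, and DESeq2 gave −4.62 with an adjusted p of 0.00537. In the other fits that kept the gene the adjusted p was between 0.0522 and 0.128. IHC replicate 6 was also the IHC library with the highest Prox1, 79.7 CPM, and with Fgfr3, a gene of OHCs and neighbouring supporting cells, at 73.3 CPM against at most 11.8 CPM in the other IHC libraries. Whether these values are related to that of Sptbn5 was not tested. Exons of Pla2g4b and Gm28042 on the opposite strand cover 6.80% of the exonic bases of Sptbn5, and these genes had at most 12 counts in any library.

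**Figure D3:**
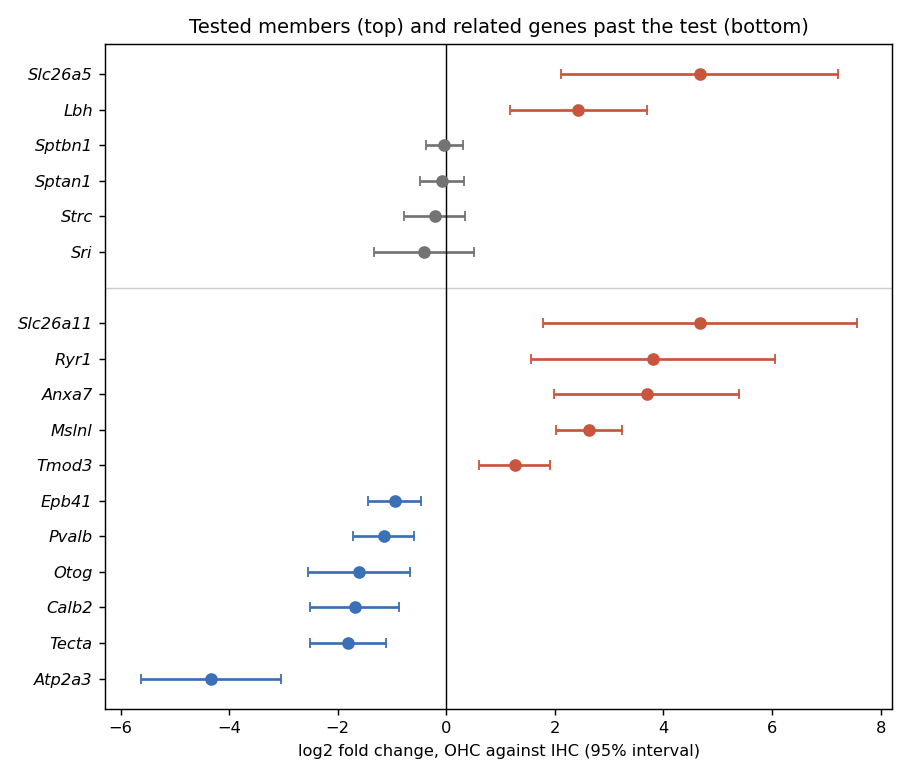
Points are log2 fold changes of OHCs against IHCs (horizontal axis) with 95% intervals, for the 6 members that were tested (upper block) and the 11 genes of the related lists that passed the test (lower block); red marks genes called higher in OHCs, blue those called higher in IHCs and grey those not called. The intervals of Sptbn1, Sptan1, Strc and Sri include 0, and those of Slc26a5 and Lbh lie between 1.17 and 7.21.

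A spectrin tetramer needs both chains, so the beta chains were compared with Sptan1 within each library, as counts per kilobase of exon. Sptbn1 had 0.780 to 2.13 times the level of Sptan1 in IHCs and 1.27 to 1.88 times in OHCs, with means of 1.56 ± 0.461 and 1.53 ± 0.203 (SD, n = 6 each). The log2 ratio differed by 0.03 between the cell types, with an exact permutation p of 0.933 before and after adjustment over the 4 ratios tested. Sptbn4 (beta IV spectrin) stood at means of 0.00171 and 0.000323 times Sptan1 in IHCs and OHCs, with an adjusted exact permutation p of 0.933. The ratio of Sptbn5 was lower in OHCs by 3.88 on the log2 scale, with an exact permutation p of 0.0390 that became 0.156 after adjustment.

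Sptb, the beta I spectrin best known from red blood cells, was the other abundant beta chain. It ranged from 289 to 507 CPM in IHCs and from 437 to 604 CPM in OHCs; the log2 fold change was 0.29 ± 0.19 (SE) with an adjusted p of 0.388 in edgeR. Its share of all beta spectrin transcripts by TPM was 35.5% ± 8.81 in IHCs and 40.6% ± 3.67 in OHCs, against 63.3% ± 8.61 and 58.8% ± 3.53 for Sptbn1 (SD, n = 6 each). Sptbn4 and Sptbn5 made up at most 2.35% each in any library. The 7 red cell markers, including 4 globin genes, summed to at most 3.20 CPM in any library, and Hba-a2 and Hbb-bs were at 0 throughout. The part of red cells in the Sptb counts was not tested.

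**Figure D4:**
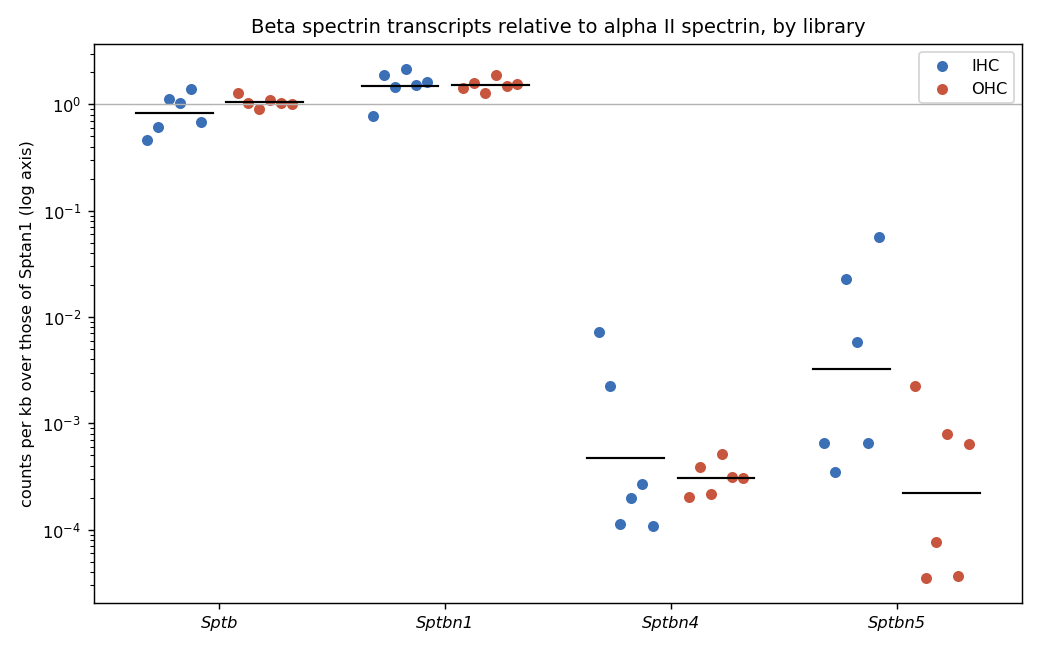
The vertical axis (log scale) is the number of counts per kilobase of exon of 4 beta spectrin genes divided by that of Sptan1, for the 6 IHC (blue) and 6 OHC (red) libraries, with the geometric mean as a bar. Sptbn1 and Sptb lie around 1 in both cell types, Sptbn4 and Sptbn5 lie at 0.0562 or below, and the Sptbn5 values spread furthest.

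Of 17 partners that bind or cap the spectrin and actin lattice, all were tested, 1 was higher in OHCs, 1 was higher in IHCs, and the median log2 fold change was −0.05. The share called in either direction over all genes tested was 6.26%. Tmod3 (tropomodulin 3, which caps the pointed ends of actin filaments) was 14.6 to 40.9 CPM in IHCs and 49.2 to 97.4 CPM in OHCs without overlap. Its log2 fold change was 1.26 ± 0.31 (SE) with an adjusted p of 0.0201 in edgeR, and 1.11 with an adjusted p of 0.0597 without OHC replicate 3. That library had the highest Tmod3 value and the highest sum of endothelial markers, and whether they are related was not tested. Tmod1 and Tmod2, at 63.9 ± 25.3 and 35.1 ± 13.2 TPM in IHCs and 87.0 ± 31.4 and 45.9 ± 10.3 TPM in OHCs (SD, n = 6 each), were not called. Epb41 (protein 4.1R, which joins spectrin to actin and to membrane proteins) was 104 to 176 CPM in IHCs and 54.5 to 109 CPM in OHCs; the log2 fold change was −0.95 ± 0.23 (SE) with an adjusted p of 0.0176 in edgeR. Ank3 (ankyrin G) was at 36.5 ± 16.3 TPM in IHCs and 42.4 ± 7.51 TPM in OHCs and Ank2 (ankyrin B) at 1.10 ± 0.667 and 1.77 ± 0.777 TPM, and neither was called.

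Prestin belongs to the SLC26 family of anion transporters, of which 4 of 11 genes passed the filter. Of these 4, 2 were called higher in OHCs, beside 2.44% of all genes tested. Besides Slc26a5, Slc26a11 was called higher in OHCs, with 0 to 0.551 CPM in IHCs and 0.271 to 6.58 CPM in OHCs; the log2 fold change was 4.67 ± 1.38 (SE) with an adjusted p of 0.0492 in edgeR. That call was lost in 11 of the 12 fits that left out a single library, with adjusted p of up to 0.100. Slc26a11 had 0, 1, 0, 0, 18 and 0 counts in the IHC libraries, so it too passed the filter only through the OHC group. Slc26a2 was at 3.33 ± 2.47 TPM in IHCs and 3.66 ± 2.09 TPM in OHCs, and Slc26a6 at 1.78 ± 3.41 and 0.662 ± 0.187 TPM (SD, n = 6 each), neither called; IHC replicate 5 held 8.65 TPM of Slc26a6 and no other IHC library more than 1.52 TPM. Slc26a1, Slc26a3, Slc26a4, Slc26a7, Slc26a8, Slc26a9 and Slc26a10 were not tested; 2 of them exceeded 5 CPM in a single library each, Slc26a1 at 20.4 CPM in OHC replicate 5 and Slc26a10 at 15.7 CPM in IHC replicate 3. Slc26a4, the pendrin gene, was at 0 in all IHC libraries and at most 0.651 CPM in OHCs.

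Other genes of later OHC function did not pass the test. Of 9 checked, 8 were tested and none was called by edgeR, DESeq2 or limma-voom, while 2 had an unadjusted p under 0.05 in edgeR, a level that 21.8% of all genes tested reached; the median log2 fold change was −0.14. The subunits of the efferent acetylcholine receptor, Chrna9 and Chrna10, had log2 fold changes of −0.57 and 0.09 with adjusted p of 0.220 and 0.899. Ikzf2, a regulator of the OHC programme, was at 1.76 ± 1.33 TPM in IHCs and 1.73 ± 2.31 TPM in OHCs (SD, n = 6 each) and Slc2a5, a sugar transporter of the mature lateral wall, had its highest values in IHCs, 17.5 CPM in replicate 1, and was not tested.

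Per length, the members ranged from abundant spectrin transcripts to transcripts near 0 in both cell types. In IHCs the order of mean TPM was Sptbn1 at 151 ± 67.7, Sptan1 at 93.5 ± 31.5, Strc at 55.6 ± 24.2, Sri at 6.58 ± 3.55, Lbh at 5.76 ± 4.27, Sptbn5 at 1.90 ± 3.30, Ocm at 0.538 ± 0.812 and Slc26a5 at 0.402 ± 0.634 (SD, n = 6). Of neighbours in that order, only Strc and Sri were further apart than their SDs reach. In OHCs the order was Sptbn1 at 177 ± 29.5, Sptan1 at 118 ± 28.7, Strc at 64.5 ± 11.7, Lbh at 35.6 ± 22.3, Slc26a5 at 10.9 ± 5.24, Sri at 5.79 ± 2.97, Ocm at 3.11 ± 7.24 and Sptbn5 at 0.0777 ± 0.123 TPM (SD, n = 6). There, Sptbn1 and Sptan1, and Sptan1 and Strc, were further apart than their SDs reach, while Strc and Lbh, Lbh and Slc26a5, Slc26a5 and Sri, Sri and Ocm, and Ocm and Sptbn5 were not.

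By mean level Slc26a5 was thus the last in IHCs and the fifth in OHCs, and Sptbn5 the sixth in IHCs and the last in OHCs. Among the 13242 tested genes with a length, prestin ranked 5575 by mean TPM in OHCs, in the top 42.1%, whereas Sptbn1 ranked 235. The place of Sri in OHCs depended on its length: with the canonical transcript in place of all annotated exons it was at 29.0 ± 14.9 TPM there, above Slc26a5, and at 33.0 ± 17.8 TPM in IHCs, where its place stayed the same.

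**Figure D5:**
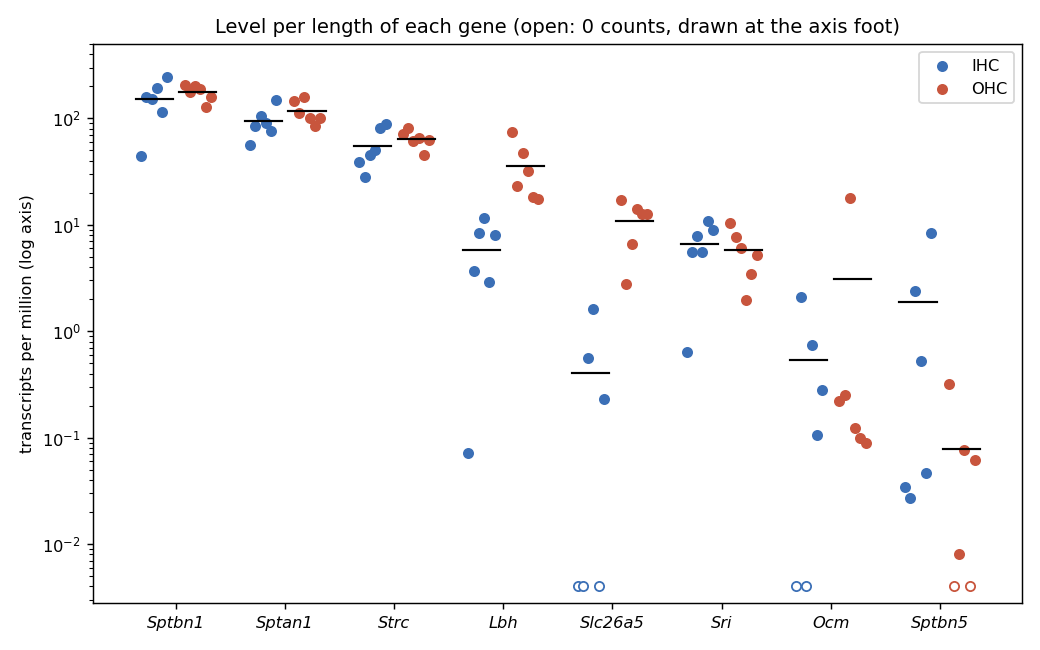
Each point is the level of 1 gene in 1 library in TPM (vertical axis, log scale), with IHC libraries in blue, OHC libraries in red, the mean as a bar and libraries with 0 counts as open points at the foot of the axis. The 3 genes at the left, Sptbn1, Sptan1 and Strc, have the highest means in both cell types, and Lbh and Slc26a5 are the genes whose red points all lie above the blue ones.

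The genes whose levels ran most like those of a member over the 12 libraries were found by Pearson's r of log2 CPM, given here as a description of libraries that differ in cell type and depth. For Slc26a5 they were Mslnl (r = 0.946), Ankrd6 (r = 0.946) and Cnih1 (r = 0.945), which had log2 fold changes of 2.63, 2.23 and 1.35. For Lbh they were Slmap (r = 0.971), Ptprq (r = 0.958), which encodes a phosphatase of the stereocilia, and Dpp10 (r = 0.940). For Strc they were Neurl4 (r = 0.899), Grn (r = 0.896) and the potassium channel gene Kcnh2 (r = 0.873). For Sptan1 they were Uck1 (r = 0.931), Gm4987 (r = 0.930) and Nop53 (r = 0.902), and for Sptbn1 Evi5 (r = 0.923), Hsp90b1 (r = 0.917) and Hnrnpd (r = 0.915). Those for Sri were Atrn (r = 0.918), Eya3 (r = 0.917) and Ttc9c (r = 0.876). Gm4987, named for Sptan1, averaged only 0.547 CPM in IHCs and 0.390 CPM in OHCs. By CPM, IHC replicate 1 stood above all other libraries for Sptan1, and its part in the correlations of that gene was not tested.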

How the data were processed

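Sorted P0 hair cells gave 6 IHC and 6 OHC libraries of ribosome-depleted, amplified RNA, read as 100-base pairs. The authors trimmed reads with Trimmomatic, aligned them with STAR to GRCm39 and deposited raw counts per gene from HTSeq in intersection-nonempty mode with GENCODE vM27; default settings applied unless named, no strand option is named, and versions are not given in the sources used here. Gene names, lengths, positions and start sites were taken from GENCODE vM39, which held 98.8% of the identifiers and 99.97% of the counts.

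Counts were tested with edgeR 4.0.16 (filterByExpr, TMM, quasi-likelihood test) over 13269 genes, with Benjamini-Hochberg adjustment and a threshold of 0.05. SEs were taken as the log2 fold change over the square root of F. On simulated counts for this comparison over 13269 genes, 35.5% of 200 genes changed by 4-fold were called, with 1 false call. Genes left out by the filter, and spectrin ratios (0.5 added to each count), were compared by two-sided exact permutation tests over all label assignments. TPM used the union of exons. P-values measure the spread between pools, which may be partly technical. Groups and replicate numbers were taken from the labels, and the use of edgeR with a threshold of 0.05 followed the study. Correlations of IHC and OHC libraries with the same number were −0.03 to 0.02, so these were not treated as pairs. The labels do not say whether they share pups. The 8 genes and the related lists were chosen with earlier results of these data known. Named genes were the 8 genes, listed genes past the threshold, spectrin and SLC26 genes, the 3 tested genes, at any level, most like each member that itself averaged at least 10 CPM in a cell type, and genes overlapping a member; the other listed genes given as not called were chosen as examples after their values were seen. Alternatives were DESeq2 1.42.0, limma-voom (limma 3.58.1), RLE factors, other filters, a replicate block and leaving out each library. No protein sequence was used here, and some genes of the lists are not reported here.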

Additional observations from a re-analysis of the deposited data

Results flagged for a closer look

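Of 26 sets of 6 libraries checked for a single library far from the others, 8 held one. The rule flags about 1 in 20 sets of normally distributed values. The sets checked were CPM values and ratios, some near 0 and some sharing the same counts, so that rate need not hold for them. For Slc26a5, IHC replicate 4 stood at 1.84 CPM against 0 to 0.602 CPM in the other IHC libraries. For Ocm, OHC replicate 3 stood at 3.77 CPM against 0.0234 to 0.061 CPM, and IHC replicate 2 at 0.708 CPM against 0 to 0.202 CPM. For Sptan1, IHC replicate 1 stood at 879 CPM against 409 to 540.3 CPM, but by TPM with ribosomal RNA counted in the total it was the lowest library, at 56.3. For Sptbn5, IHC replicate 6 stood at 25.9 CPM against 0.147 to 9.66 CPM, and OHC replicate 1 at 0.992 CPM against 0 to 0.291 CPM. The ratio of Sptbn4 to Sptan1 was 0.00729 in IHC replicate 1 against 0.000108 to 0.00227, and that of Sptbn5 to Sptan1 was 0.00223 in OHC replicate 1 against 3.55e-05 to 0.000798.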

How the results depend on the processing

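The log2 fold changes of Slc26a5 and Lbh stayed positive in all 18 alternatives that kept them, from 4.398 to 6.53 and from 2.18 to 2.79, with adjusted p from 0.000373 to 0.0517 and from 0.000863 to 0.0605. With at least 10 counts in every library both genes were left out by construction, so that 0 members were called. Genes higher in OHCs and in IHCs numbered 918 and 893 with no filter and 1590 and 1339 with DESeq2, and 530 were higher in OHCs with limma-voom, where Sptan1 turned to 0.0093; the cause was not tested. Leaving out a library gave 225 to 402 genes higher in OHCs, 369 to 551 higher in IHCs, 0 to 2 members called, and log2 fold changes of −0.35 to 0.032 for Strc, −0.17 to 0.092 for Sptan1 and −0.12 to 0.030 for Sptbn1. It gave differences of −0.128 to 0.622 CPM for Ocm and −7.43 to −2.29 CPM for Sptbn5, where the exact permutation p fell to 0.0216 without IHC replicate 2 or 5 and to 0.0281 without IHC replicate 1; this check was chosen after seeing the data. The log2 ratios to Sptan1 differed by −0.16 to 0.13 for Sptbn1, −1.03 to 0.18 for Sptbn4 and −4.55 to −3.05 for Sptbn5, and none passed after adjustment. With a pseudocount of 5 the difference for Sptbn5 was −2.62, with an adjusted exact permutation p of 0.251. Without a pseudocount the ratio of Sptbn5 could not be computed, since 2 OHC libraries had 0 counts.

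Leaving ribosomal RNA out of the scaling moved TPM in IHCs to 1.54 for Ocm, 144 for Strc, 14.4 for Lbh, 16.6 for Sri, 243 for Sptan1 and 386 for Sptbn1, and in OHCs to 26.1 for Slc26a5, 152 for Strc, 81.4 for Lbh, 13.5 for Sri, 277 for Sptan1 and 418 for Sptbn1. The canonical transcript length, added after seeing the data, gave 33.0 and 29.0 for Sri, 155 and 195 for Sptan1 and 311 and 366 for Sptbn1 in IHCs and OHCs. The replicate block gave log2 fold changes of 6.40 for Slc26a5 (adjusted p 0.00819) and 2.58 for Lbh (adjusted p 0.0274), 391 genes higher in OHCs and 512 higher in IHCs, with 2 members called; same-numbered libraries did not deviate together, with correlations of −0.03 to 0.02, and the block changed no call of a member. For Sptbn5 the mean difference between same-numbered libraries equals the difference of the means. Its values of −6.18 CPM and, for the log2 ratio, −3.88 were thus unchanged by construction. The exact sign-flip p over same-numbered libraries was 0.156 for the CPM difference, and 0.25 after adjustment for the ratio. Counts were few for Ocm, at most 2 in 9 of the 12 libraries, and IHC replicate 1 had the fewest counts outside ribosomal RNA.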
